A study of Sus scrofa with 4 samples.

Results

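Cells that carry plasma and B cell genes were a small set in the endometrium, the lining of the uterus, of pregnant pigs: 168 of 16946 kept cells, 82 on day 12 and 86 on day 9 of pregnancy. A kept cell had at least 1000 UMIs (unique molecular identifiers, which count RNA molecules), at least 500 genes and at most 20% mitochondrial UMIs. A member had 5 or more UMIs summed over MZB1, DERL3, POU2AF1, CD79A, IRF4 and TNFRSF17, and no UMI of CD3E, a T cell receptor subunit. The levels of these 6 genes chose the members and are given only as a description. All other kept endometrial cells were the comparison, 8880 on day 12 and 7898 on day 9.

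Plasma cells are the end stage of B cells and make antibody. In mucosal tissue most of their product is polymeric IgA, whose units are joined by the J chain (gene JCHAIN) and carried through the epithelium by the receptor PIGR. They hold an enlarged endoplasmic reticulum (ER), where antibody chains are imported, folded and glycosylated, and they enter epithelial tissues such as the gut and mammary gland through chemokine receptors such as CCR10, the receptor of CCL28.

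The series holds 4 single-cell RNA libraries of pigs (Sus scrofa), from embryo and endometrium at days 12 and 9 of pregnancy, 1 library for each. The 2 endometrium libraries are used here. Both groups were pregnant, and neither a non-pregnant group nor a treatment is given. The endometrium was dissociated with type II and type IV collagenase, dispase and DNase I, passed through a 70 µm strainer and freed of red cells, and 3' droplet libraries were made. The sources used here give neither breed, age nor number of animals, nor whether animals were pooled.

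The deposited endometrium files held 27589239 UMIs on day 12 and 27250593 on day 9, and the kept cells had a median of 2233 and 2639 UMIs. Members had a median of 9647 UMIs on day 12 and 10253 on day 9, against 2223 and 2625 in the other kept cells. Their median of genes per cell was 1051.5 and 1094, against 1067 and 1243. Mitochondrial UMIs were a median of 0.606% and 0.432% in members, against 1.87% and 1.59% in the other cells. The 2 endometrium libraries shared 105 kept barcodes, no barcode was a member in both, and 2 members of day 12 and 1 of day 9 had a barcode that was kept in another library. With 1 library a group, no difference between days has a replicate check and no p-value is given. The 95% intervals, exact Poisson for levels and exact binomial for shares, cover counting error only, and the days cannot be told apart from the animals or the libraries.

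Members made up 0.915% of kept cells on day 12 (95% interval 0.728 to 1.13%) and 1.08% on day 9 (0.862 to 1.33%). The difference of day 12 minus day 9 was −0.162 percentage points, with an interval of −0.475 to 0.145. The interval includes 0, so a difference in share was not detectable at this depth. Just inside the threshold, 8 kept cells of day 12 and 7 of day 9, 1 of them with CD3E, had exactly 5 UMIs of the 6 genes. Just outside it 26 and 21 kept cells had exactly 4. A UMI of CD3E kept out 5 cells of day 12 and 9 of day 9 that had 5 or more such UMIs.

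The members were not uniform. In 60 members of day 12 and 70 of day 9, 4 genes together held between 28.1% and 90.8% of the cell's UMIs. In the other 22 and 16 members the same 4 genes held at most 2.84% and 2.61%. The 4 genes are JCHAIN and 3 genes to which the files give no symbol, among them ENSSSCG00000038719 and ENSSSCG00000036224. They are called the leading genes because each held 5% or more of all member UMIs. A cell with 10% or more of its UMIs in them is called rich and a cell with less is called poor. The 10% line was chosen after the values were seen, and no member and 1 other kept cell, of day 9, lay between 5% and 20%. The leading-gene share had a lowest value of 35.9%, a median of 76.2% and a highest of 90.8% in rich cells of day 12. On day 9 the corresponding shares were 28.1%, 76.6% and 85.3%.

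**Figure D1:**
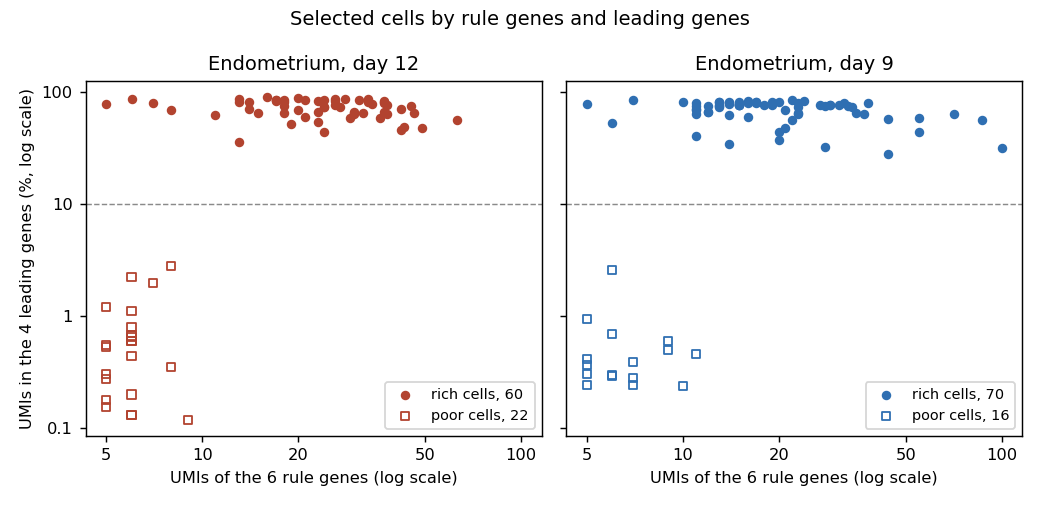
Each point is a selected cell, with day 12 at left and day 9 at right. The x axis gives the UMIs of the 6 rule genes and the y axis the percent of the cell's UMIs in the 4 leading genes, both on log scales, and the dashed line marks 10%. Rich cells (60 and 70) lie at 28.1% or above, and poor cells (22 and 16) lie at 2.84% or below.

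The rule genes chose the members, so their levels in rich and poor cells are given only as a description. Rich cells held a median of 24 rule UMIs on day 12 and 17.5 on day 9, against 6 in poor cells on each day. MZB1, a chaperone of the ER in plasma cells and marginal zone B cells, had a UMI in every rich cell, with a median of 16 UMIs on day 12 and 12 on day 9, against a median of 1 and 2 in poor cells. MZB1 gave the most UMIs of the rule genes in 56 of 60 and 69 of 70 rich cells. In poor cells CD79A, a signalling subunit of the B cell receptor, led instead, in 11 of 22 and 10 of 16 cells. CD79A also had a UMI in 9.96% of stromal cells under the 10% line on day 12 and in 19.8% on day 9. Its UMIs alone therefore do not mark a B cell here. TNFRSF17, the receptor BCMA of plasma cells, had a UMI in 28 of 60 rich cells of day 12 and 48 of 70 of day 9, against 1 of 22 and 0 of 16 poor cells. IRF4, a transcription factor of plasma cells and of other immune cells, had a UMI in 18 and 15 rich cells, against 13 and 3 poor cells.

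JCHAIN, one of the 4 genes that divide rich from poor cells, had by that choice a median of 1712.5 UMIs per rich cell on day 12 and 1482.5 on day 9, against medians of 1 and 7 UMIs in poor cells. Genes outside both the rule and the 4 leading genes bear on the label. EAF2, a transcription elongation factor gene of plasma cells, had a UMI in 49 of 60 and 52 of 70 rich cells, against 0 of 22 and 1 of 16 poor cells. SLAMF7, a surface receptor of plasma cells and NK cells, had a UMI in 32 and 47 rich cells, against 1 and 0 poor cells. TNFRSF13B, the receptor TACI, had a UMI in 33 and 46 rich cells, against 3 poor cells on each day. Depth differed between the sets, with a median of 10868 UMIs in rich and 2598 in poor cells of day 12, and 10253 and 12092.5 in those of day 9. With each cell thinned to 1000 UMIs, EAF2 had a UMI in 13.3% of rich and 0% of poor cells of day 12, and in 17.1% and 0% of those of day 9. SLAMF7 was found in 8.33% and 0%, and in 18.6% and 0%. TNFRSF13B no longer separated the sets of day 12, with 3.33% of rich and 4.55% of poor cells, and stood at 12.9% and 0% on day 9. EAF2 and SLAMF7 thus go with the plasma cell name for the rich cells.

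The B cell name rests on few molecules. MS4A1, which encodes CD20 and marks B cells before they become plasma cells, gave 14 UMIs in 7 members of day 12 and 2 UMIs in 2 members of day 9. PAX5, the transcription factor that holds B cell identity, gave 0 UMIs in members on either day, where 3 UMIs, taken as the limit of a count of 0, equal 3.53 CPM (UMIs per 1000000 UMIs of the set) on day 12 and 2.95 on day 9. The wider list of B cell surface and transcription factor genes summed to 86.7 CPM in rich cells of day 12 and 94.4 CPM in those of day 9. In poor cells it summed to 976 and 178 CPM, and in the other kept cells to 504 and 292 CPM. The sums of poor cells weigh each cell by its UMIs, which reached 36927 on day 12 and 54803 on day 9. Among cells chosen by their own markers on day 12, it summed to 1097 CPM in macrophages, 465 CPM in stromal cells and 433 CPM in T cells. A high sum of this list is therefore not specific to B cells here.

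Rich cells made up 0.669% of kept cells on day 12 (0.511 to 0.861%) and 0.877% on day 9 (0.684 to 1.11%), a difference of −0.207 points (−0.486 to 0.0643). Poor cells were 26.8% of members on day 12 (17.6 to 37.8%) and 18.6% on day 9 (11.02 to 28.4%), a difference of 8.22 points (−5.24 to 21.5). Both intervals include 0. A further 6 kept cells of day 12 and 7 of day 9 were rich without being members. All but 1 of them, which held no rule UMI on day 12, had a UMI of CD3E.

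ENSSSCG00000038719 and ENSSSCG00000036224 replaced each other from cell to cell. On day 12, 33 of 60 rich cells held 1% or more of their UMIs in ENSSSCG00000038719 alone, 25 in ENSSSCG00000036224 alone and 2 in both. On day 9 the counts were 53, 17 and 0 of 70 cells. The cells of the second kind were 41.7% of rich cells on day 12 (29.1 to 55.1%) and 24.3% on day 9 (14.8 to 36.0%), so the intervals overlap. Summed over members, ENSSSCG00000036224 reached 120964 CPM on day 12 and 53243 CPM on day 9, whereas ENSSSCG00000038719 reached 209655 and 202626 CPM. Across the rich cells of a library the shares of the 2 genes had a Pearson r of −0.81 on day 12 (60 cells) and −0.83 on day 9 (70 cells). Spearman's rho was −0.67 and −0.60. The cells share a library and the shares come from the same total, so these values are a description.

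**Figure D2:**
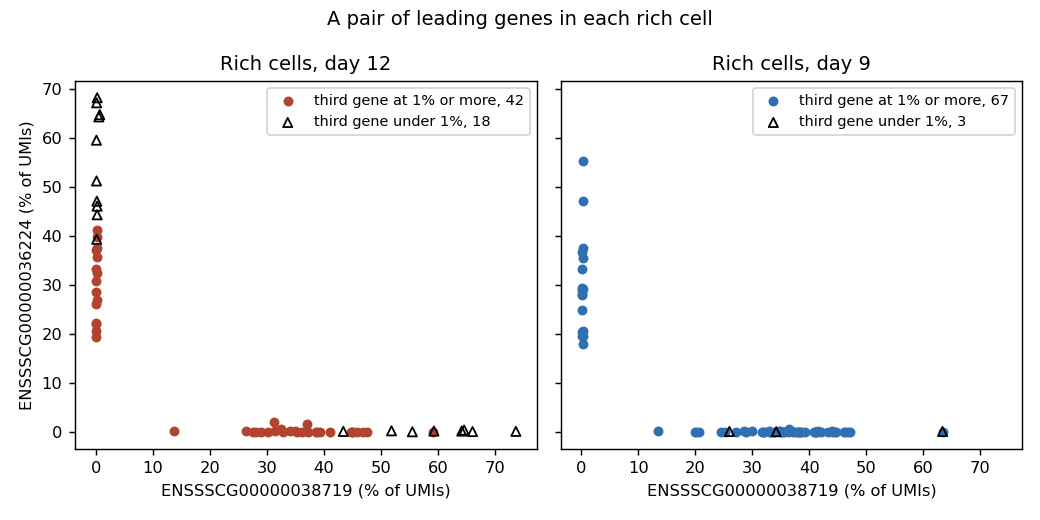
Each point is a rich cell, with day 12 at left and day 9 at right. The axes give the percent of its UMIs in ENSSSCG00000038719 (x) and ENSSSCG00000036224 (y), and open triangles mark cells with under 1% of their UMIs in the third gene without a symbol (18 on day 12, 3 on day 9). The points lie along the axes, and 2 cells of day 12 hold 1% or more of both.

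The remaining leading gene, the third without a symbol, held 1% or more of the UMIs in 42 of 60 rich cells on day 12 and in 67 of 70 on day 9. JCHAIN was higher in most of these cells. On day 12 JCHAIN had a median share of 18.4% of UMIs in the 42 cells with the third gene, against 0.467% in the 18 cells without it. JCHAIN itself held 1% or more in 41 of the 42 cells and in 8 of the 18 cells, where it reached 21.7%. On day 9 the medians were 17.1% in 67 cells and 1.82% in 3 cells. EAF2 stood at 642 CPM of the remaining UMIs (those outside the 4 leading genes) in the 42 cells of day 12 and at 532 CPM in the 18 cells, and TXNDC5 at 1170 and 1131 CPM.

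Other genes, picked after their values were seen, differed between these cells of day 12 on the same scale of remaining UMIs. CFD, the complement protease factor D, stood at 10014 CPM (9420 to 10635) in the 42 cells with the third gene and at 25722 CPM (24456 to 27037) in the 18 cells without it. CXCR4, the receptor for CXCL12, stood at 208 CPM (130 to 314) and 665 CPM (475 to 906), with a UMI in 11 of 42 and 14 of 18 cells. In the opposite direction, CCR10 stood at 406 CPM (294 to 547) in the 42 cells and 83.1 CPM (27.0 to 194) in the 18 cells. TNFRSF17, a rule gene and so given only as a description, stood at 651 CPM (507 to 824) and 116 CPM (46.8 to 240). The secreted factor gene FAM3C stood at 1000 CPM (819 to 1210) and 150 CPM (68.4 to 284). MGP stood at 179 CPM (108 to 280) and 798 CPM (588 to 1058), and 1 cell gave 44.8% of its UMIs in rich cells of day 12. For CFD 1 cell gave 10.1%. On day 12 none of these pairs of counting intervals overlapped. Since the genes were picked by their values and the intervals leave out the spread between cells, this is a description and no test. On day 9 CFD ran the other way, at 7395 CPM (7019 to 7786) in 67 cells with the third gene and 5221 CPM (3975 to 6735) in the 3 cells without it. CXCR4 stood at 189 CPM (133 to 260) and 354 CPM (96.4 to 906) there, and CCR10 at 240 CPM (176 to 319) and 88.5 CPM (2.24 to 493), with intervals that overlap. TNFRSF17 stood at 485 CPM (393 to 593), FAM3C at 730 CPM (616 to 860) and MGP at 66.4 CPM (35.4 to 114) in the 67 cells. Each of them had 0 UMIs in the 3 cells.

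The leading genes were also read in nearly every other cell at a low level. Among other kept cells under the 10% line they summed to 2498 CPM on day 12 and 4055 CPM on day 9. The level was alike in T cells, macrophages and stromal cells chosen by their own markers: 2353, 2289 and 2507 CPM on day 12, and 3500, 3845 and 4060 CPM on day 9. ENSSSCG00000036224 held 19.5% of the 4 genes' UMIs in members of day 12 and 10.5% in members of day 9, and in the other cells under the line 12.7% and 7.47%. JCHAIN had at least 1 UMI in 55.8% of stromal cells of day 12 and 76.5% of those of day 9, with a median depth of 2260 and 2773 UMIs. In poor cells JCHAIN stood at 228 CPM (160 to 316) on day 12 and 383 CPM (316 to 460) on day 9, against 302 and 510 CPM in the other cells under the line. ENSSSCG00000036224 stood at 1002 CPM (852 to 1171) in poor cells of day 12 and 332 CPM (270 to 405) in those of day 9, against 316 and 303 CPM. The 4 genes together stood at 3196 and 3186 CPM in poor cells, against 2498 and 4055 CPM. These sums weigh each cell by its UMIs, which reached 36927 and 54803 in poor cells. Per cell, the median share of the 4 genes was 0.543% in poor and 0.254% in other cells under the line on day 12. On day 9 it was 0.380% and 0.402%. For ENSSSCG00000036224 the medians were 0.198% and 0.0219% on day 12, and 0.0316% and 0.0255% on day 9. The part of free RNA in these values was not tested.

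The poor cells met the rule while other marker lists stood out in them to unequal degrees. Each was assigned to the marker list, of 11 lists for endometrial and immune cell types, whose share of UMIs was highest relative to the other kept cells, with at least 5 UMIs of the list. On day 12 this put 6 of 22 poor cells under plasmacytoid dendritic cell genes, 6 under conventional dendritic cell genes, 4 under B cell genes, 4 under endothelial genes and 1 under macrophage genes, and 1 had no such list. On day 9 it put 8 of 16 under epithelial genes, 5 under plasmacytoid dendritic cell genes, and 1 each under B cell, NK cell and endothelial genes. The 2 dendritic cell lists share IRF8, and the plasmacytoid and B cell lists share BLNK and SPIB. The 6 conventional-list cells of day 12 held 6 to 16 UMIs of their list each, and 46 UMIs of IRF8 in all. They also held 6 to 33 UMIs of the plasmacytoid list each. Their assignment thus rests mostly on the shared gene IRF8 and does not set them apart as conventional dendritic cells.

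**Figure D3:**
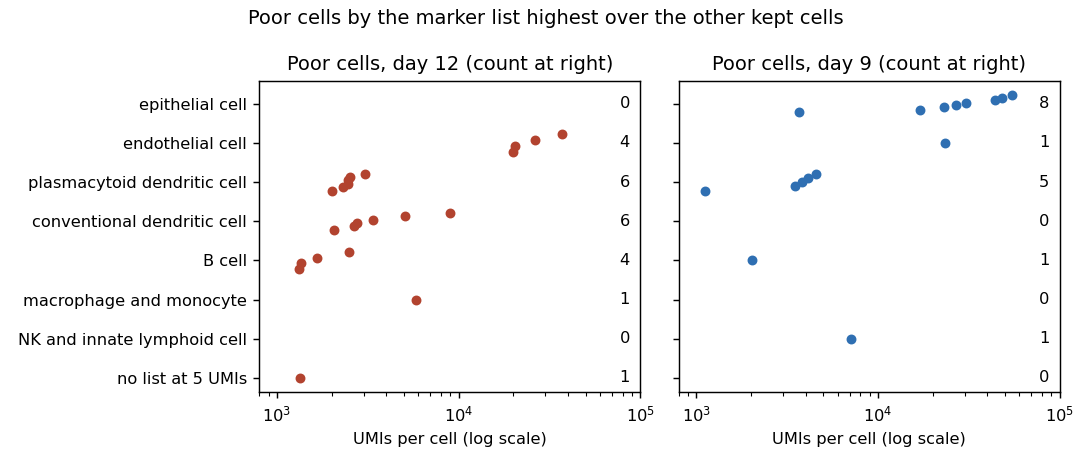
Each point is a poor cell placed by its UMIs on a log x axis and by the marker list that was highest in it over the other kept cells, with day 12 at left and day 9 at right. The number at the right of each row is its count of cells. The conventional dendritic cell row rests mostly on IRF8, which the plasmacytoid list shares. The 4 endothelial-list cells of day 12 hold 19999 UMIs or more, and the 8 epithelial-list cells of day 9 reach 54803 UMIs.

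IRF8, a transcription factor of dendritic cells and B cells, and PLD4, an endolysosomal nuclease of plasmacytoid dendritic cells, each had a UMI in all 6 plasmacytoid-list cells and in all 6 conventional-list cells of day 12, so they do not separate these groups. VPREB1, the surrogate light chain of B cell precursors, had a UMI in those 6 cells (32 UMIs), in 4 of the 6 conventional-list cells (21 UMIs) and in 4 of the 5 plasmacytoid-list cells of day 9 (22 UMIs). LAMP5, a marker of human plasmacytoid dendritic cells, gave 0 UMIs in members. MS4A1 had a UMI in 3 of the 4 B-list cells of day 12 and reached 8 UMIs in 1 conventional-list cell. The 8 epithelial-list cells of day 9 held a median of 28644.5 UMIs, with 130 UMIs of the epithelial adhesion gene EPCAM, 135 of the keratin KRT8 and 330 of CCL28. The 4 endothelial-list cells of day 12 held a median of 23522 UMIs, with 87 UMIs of PLVAP, a component of endothelial fenestrae, and 569 of CXCL10, of which 518 came from 1 cell. No doublet caller was applied, and whether these large cells are doublets was not tested.

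Members were then set against the other kept cells across all genes. At 2-fold or more on log2 CPM with 1 CPM added, among genes at 50 CPM or more in either set, 32 of 2842 genes (1.13%) were higher in members and 2071 (72.9%) lower, of which 7 and 130 carry no symbol. Within day 12 the shares were 1.13% and 81.9%, and within day 9 they were 1.19% and 60.8%. The 4 leading genes took 55.7% of member UMIs and 0.559% of the UMIs of other cells, which by itself moves every remaining gene by −1.17 on the log2 scale. Scaled to the UMIs outside those 4 genes, 231 of 3153 genes (7.33%) were higher and 493 (15.6%) lower. The rule fixed part of this contrast, so nothing is read from these counts.

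Among the genes named as highest in members over other cells, the rule genes left aside, JCHAIN came first, at 140541 CPM in members and 657 CPM in other cells of day 12, and 123538 and 1082 CPM on day 9 (log2 ratio 7.23 over both days). EAF2 followed, at 118 CPM (95.8 to 143) in members of day 12 and 90.3 CPM (72.8 to 111) in members of day 9, against 1.81 CPM in other cells of both days. CCR10 stood at 57.7 CPM (42.7 to 76.2) against 1.91 CPM on day 12 and 47.1 CPM (34.7 to 62.5) against 2.39 CPM on day 9. SLAMF7 stood at 90.6 against 9.71 CPM and 113 against 4.23 CPM, and TNFRSF13B at 56.5 against 3.01 CPM and 84.4 against 11.5 CPM. RGS18, a regulator of G protein signalling known from platelets, stood at 89.4 against 3.82 CPM and 36.3 against 2.24 CPM. Each of these 6 genes was higher in members on both days.

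Of the other 14 names, CD69 had the highest log2 ratio (2.77). TXNDC5, an ER protein disulfide isomerase, stood at 229 CPM in members and 39.1 CPM in other cells of day 12, and at 341 and 71.3 CPM on day 9. SEC11C, the catalytic subunit of the signal peptidase, stood at 351 and 89.2 CPM, and at 380 and 91.3 CPM. SPCS1, another signal peptidase subunit, stood at 648 and 256 CPM, and at 616 and 308 CPM. PDIA4, PRDX4, CRELD2 and DNAJB11, all of ER folding, had log2 ratios of 1.18, 1.17, 1.09 and 1.03. TENT5C, an mRNA poly(A) polymerase of plasma cells, had a log2 ratio of 1.11 and CFD one of 2.33. The remaining names were AQP3 (1.29), RGS1 (1.23), CCL28 (1.09) and SORL1 (1.06).

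CCL28, SORL1 and AQP3 were higher in poor than in rich cells of day 9. CCL28, a chemokine of mucosal epithelium, had 27.8 CPM in rich cells and 1111 CPM in poor cells of day 9. On day 12 CCL28 had 0 UMIs in members, with 3 UMIs equal to 3.53 CPM. SORL1, a sorting receptor, had 6.94 CPM in rich and 494 CPM in poor cells of day 9, and the water channel gene AQP3 had 43.0 and 185 CPM. With rich cells alone against all other kept cells, the log2 ratio turned to −2.55 for CCL28 and −2.75 for SORL1. That of AQP3 did not change sign.

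Genes named as lowest in members were those of the stroma, which formed most of the other cells: RORB, DKK1, DCN, IGF1, APOD, COL1A1, COL1A2, CYP1B1, IGFBP5 and CALD1, with log2 ratios of −4.74 to −3.37. DCN, the matrix proteoglycan decorin, stood at 633 CPM in members and 10163 CPM in other cells of day 12, and at 402 and 4632 CPM in those of day 9. The 14 stromal list genes together had UMIs in every member, at 3012 CPM for day 12 and 3912 CPM for day 9, against 39858 and 35415 CPM in other cells. Whether these UMIs lie in the members or are free RNA was not tested.

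For gene lists, rich cells were set against the other kept cells on the scale of remaining UMIs, among listed genes at 5 CPM or more in either set. On that scale 277 of 3131 genes at 50 CPM or more (8.85%) were higher in rich cells past 2-fold and 749 (23.9%) lower. Over all 10828 genes at 5 CPM or more the median log2 ratio was −0.49, with 6.69% higher and 29.5% lower past 2-fold. The plasma cell list without the rule genes and JCHAIN was higher in 19 of 20 measured genes, 17 of them past 2-fold, with a median of 2.90. The exception was PRDM1, the transcription factor BLIMP1, at 142 CPM in rich and 147 CPM in other cells. XBP1, the factor that drives the secretory programme, stood at 726 and 241 CPM, and SDC1, the surface marker CD138, at 118 and 25.5 CPM. BHLHA15, the factor MIST1 of secretory cells, stood at 69.7 and 0.749 CPM.

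The lists of the secretory route were higher along its early steps. Of 23 genes of translocation into the ER and signal peptide removal, 21 were higher and 15 past 2-fold, with a median log2 ratio of 1.504. Of 28 genes of ER folding and disposal, all were higher and 19 past 2-fold, with a median of 1.70. Of 17 genes of N-glycosylation, 16 were higher and 9 past 2-fold (median 1.20), and of 23 genes of ER to Golgi transport, 21 were higher and 8 past 2-fold (median 0.71). On the scale of all UMIs the medians for members over other cells were −0.10 for folding and −0.24 for translocation, against −1.31 for all genes, so the direction depends on the scale.

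**Figure D4:**
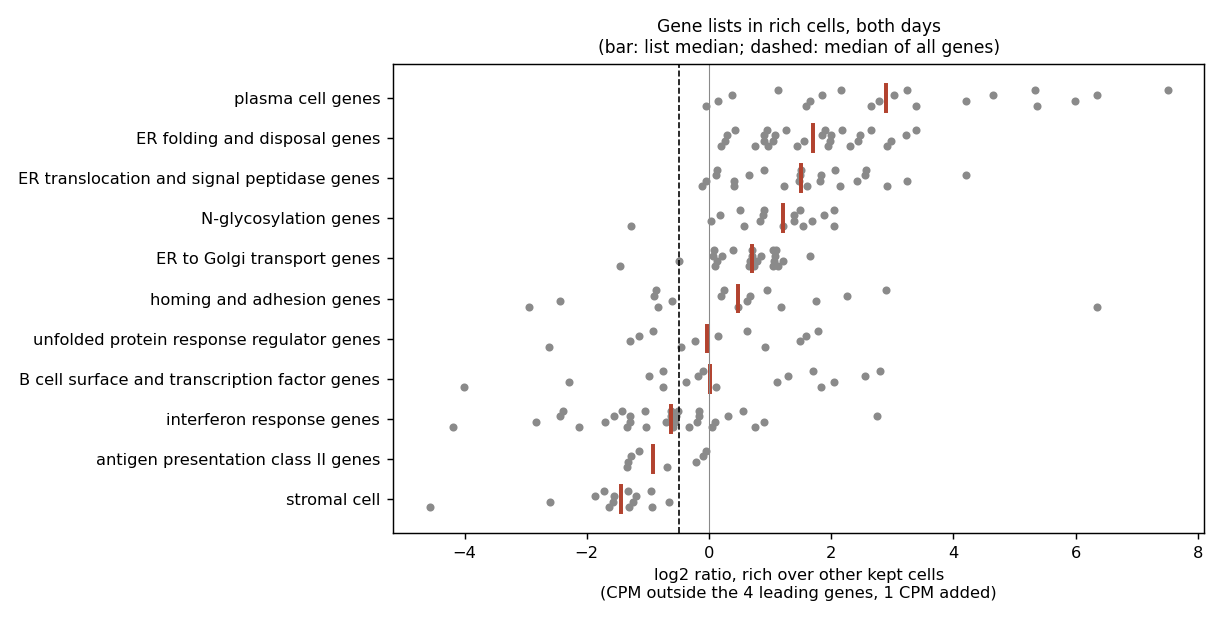
Each grey point is a gene of the list named at left, both days together. The x axis is the log2 ratio of rich cells over the other kept cells in CPM outside the 4 leading genes, with 1 CPM added. Red bars are list medians and the dashed line is the median of all measured genes (−0.49). The plasma cell, ER and glycosylation lists lie to its right, and the class II and stromal lists to its left.

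HSP90B1, PDIA4, SSR4 and HSPA5 are given here by day, in CPM of the remaining UMIs. HSP90B1, an ER chaperone of immunoglobulins and other clients, stood at 2559 CPM in rich cells of day 12 and 2004 CPM in those of day 9, against 486 and 329 CPM in other cells. SSR4, a subunit of the translocon-associated complex, stood at 3071 and 2916 CPM, against 446 and 664 CPM. HSPA5, the chaperone BiP, stood at 596 and 729 CPM, against 211 and 245 CPM. PDIA4 stood at 1487 and 1502 CPM, against 147 and 138 CPM. Other ER genes differed more between days in rich cells, among them EDEM3, DAD1 and CLGN, whose values are given with the day comparison.

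The regulators of the unfolded protein response did not follow as a list. Of 12 measured genes 6 were higher, 3 of them past 2-fold, and 3 were lower past 2-fold, with a median log2 ratio of −0.04. XBP1, EIF2AK3 (the sensor kinase PERK, 69.7 against 19.6 CPM) and ASNS (29.5 against 9.88 CPM) were higher past 2-fold in rich cells. ATF3, at 348 against 776 CPM, and CREB3L1, at 32.2 against 80.1 CPM, were lower past 2-fold. ATF6B was the other gene counted as lower, but its 0 UMIs against 5.12 CPM are too few for a fold.

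The receptors for tissue entry and survival were uneven in rich cells. CCR10 had a UMI in 21 of 60 cells of day 12 and 27 of 70 of day 9, at 69.4 and 66.6 CPM of all UMIs. CCR9, the receptor for entry into the small intestine, and CCR7, the receptor for entry into lymph nodes, had 0 UMIs in rich cells on both days, with 3 UMIs equal to 4.34 CPM on day 12 and 4.16 on day 9. The integrin genes ITGA4 and ITGB7, whose products pair in gut-homing lymphocytes, stood at 24.6 and 20.2 CPM on day 12 and 33.3 and 20.8 CPM on day 9. On the scale of remaining UMIs over both days, ITGA4 had 110 CPM in rich and 13.8 CPM in other cells, and ITGB7 77.7 and 15.5 CPM. S1PR1, the receptor for exit from tissue, had 5.36 and 33.4 CPM. Of 17 measured homing and adhesion genes 11 were higher, 5 past 2-fold, with a median of 0.47. TNFRSF17 stood at 110 CPM of all UMIs in rich cells of day 12 and 132 CPM in those of day 9, and TNFRSF13B at 65.0 and 115 CPM. IL6R, the interleukin 6 receptor, had 123 CPM of the remaining UMIs in rich and 20.8 CPM in other cells.

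Genes of antigen presentation and of other cell types were mostly lower in rich cells. Of 8 class II antigen presentation genes none was higher and 4 were lower past 2-fold (median −0.92). CD74, the invariant chain, stood at 5999 CPM in rich and 6235 CPM in other cells, and SLA-DQB1 at 549 and 1218 CPM. Of the macrophage (12 measured), stromal (14), epithelial (11) and endothelial (12) genes none was higher in rich cells. Of the 9 measured T cell genes 2 were higher, none past 2-fold.

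Between days, members of day 12 were higher past 2-fold than members of day 9 in 128 of 1432 genes (8.94%) and lower in 355 (24.8%), among genes at 50 CPM or more on a day, where a call also needed UMIs in at least 5 members of the higher day. On the scale of remaining UMIs the counts were 440 (14.5%) and 513 (16.9%) of 3036 genes. For the other kept cells they were 263 (8.23%) and 172 (5.38%) of 3196 on all UMIs, and 264 (8.23%) and 174 (5.43%) of 3207 on the remaining UMIs. The change of scale moves every gene by −0.38 log2 in members, since the 4 leading genes held 62.0% of member UMIs on day 12 and 50.5% on day 9.

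CXCL10, GBP1 and CCL8 had the highest ratios of day 12 over day 9. CXCL10, an interferon-induced chemokine, stood at 886 CPM (824 to 952) in members of day 12 and 11.8 CPM (6.09 to 20.6) in those of day 9. A single poor cell gave 68.8% of the day 12 UMIs. GBP1, an interferon-induced GTPase, stood at 282 CPM (248 to 321) and 7.85 CPM (3.39 to 15.5), and IRF1, an interferon response factor, at 419 CPM (377 to 465) and 100 CPM (81.7 to 122). HLA-DRA, a class II chain, stood at 897 and 179 CPM, SLA-DQB1 at 899 and 191 CPM, and SLA-DMA at 126 and 18.7 CPM. CD69, an activation antigen that holds lymphocytes in tissue, stood at 298 CPM (262 to 337) and 64.8 CPM (50.1 to 82.4). The other names were CCL8, of which 1 cell held 77.0% of the day 12 UMIs, PLVAP, TIFA, PSMB9, C3, CTSS, CCL2 and LXN. Poor cells gave most of the day 12 UMIs of several of these genes. GBP1 had 58 UMIs in rich and 182 in poor cells of day 12, HLA-DRA 170 and 592, and SLA-DQB1 141 and 623. The whole class II list had 1463 UMIs in rich and 3264 in poor cells of day 12. CD69, in contrast, had 245 UMIs in rich and 8 in poor cells, and IRF1 212 and 144.

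The genes named as lowest on day 12 were CCL28, CLDN7, TMEM100, DLX5, FAM162B, SORL1, WWP2, TSPAN1, MT3, DEFB1, KRT8, SLPI, LRATD1, S100A1 and RHOBTB3. CLDN7, a tight junction gene, stood at 1.18 CPM in members of day 12 and 229 CPM in those of day 9. KRT8 stood at 5.88 CPM and 178 CPM, and SLPI, a secreted protease inhibitor of epithelium, at 15.3 and 375 CPM. Of 11 measured epithelial list genes 10 were lower on day 12 past 2-fold (median −3.61), and of 11 endothelial genes 8 were higher past 2-fold (median 2.09), against a median of −0.51 over all genes. Among all genes at 50 CPM or more, 24.8% were lower and 8.94% higher past 2-fold. The lists use a minimum of 5 CPM, for which the share of all genes is not given here. The epithelial list summed to 153 CPM in members of day 12 and 638 CPM in those of day 9, and the endothelial list to 308 and 82.5 CPM. The epithelial list had 63 UMIs in rich and 67 in poor cells of day 12, and 117 and 533 in those of day 9. The endothelial list had 28 UMIs in rich and 234 in poor cells of day 12, and 20 and 64 in those of day 9.

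Within rich cells alone fewer genes differed. On all UMIs 34 of 719 genes (4.73%) were higher and 75 (10.4%) lower on day 12, and on the remaining UMIs 275 (10.2%) and 314 (11.6%) of 2708. The class II list was higher on day 12 in 8 of 8 genes, 7 past 2-fold, with a median log2 ratio of 1.54 on the remaining UMIs, and the other kept cells had 8 of 8, 6 past 2-fold and a median of 1.62. Of 29 interferon response genes 20 were higher, 12 past 2-fold, and 3 lower past 2-fold (median 0.78). In the other cells the median of that list was 0.67, with 14 of 31 past 2-fold. Across all genes in rich cells 21.9% were higher and 21.5% lower past 2-fold, with a median of −0.00. The secretory lists lay near that median: 0.10 for translocation, −0.01 for folding, 0.03 for N-glycosylation, −0.20 for ER to Golgi transport and 0.06 for the plasma cell list.

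SLA-DQB1 in rich cells stood at 849 CPM of the remaining UMIs for day 12 and 309 CPM for day 9, and in other cells at 1771 and 674 CPM. B2M, the class I light chain, stood at 28983 and 17914 CPM in rich cells, and at 16868 and 7730 CPM in other cells. IRF1 stood at 1276 and 319 CPM in rich cells, against 738 and 465 CPM. IFI6, an interferon-induced gene that differed the other way, stood at 2083 and 6069 CPM in rich cells, against 3764 and 10187 CPM. Each of these genes was also abundant in the other cells and differed there in the same direction. The part of free RNA in the rich cells' values was not tested.

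Ranked within rich cells by a rule set after the values were seen (at least 100 CPM of the remaining UMIs and 10 cells on the higher day), the 10 highest genes on day 12 were SOD3, FMO1, DKK1, GBP1, CXCL10, NMB, RBP4, IGFBP2, MGP and SLA-DMA. All 10 were also higher on day 12 in the other cells, and all but MGP were lower in rich cells of day 12 than in the other cells of that day. DKK1, for example, stood at 385 CPM in rich cells of day 12 and 9.66 CPM in those of day 9, against 1136 and 121 CPM in the other cells. A second ranking therefore took only genes at least 2-fold higher in rich than in other cells.

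In that ranking CD69 stood at 1475 CPM of the remaining UMIs (1296 to 1672) in rich cells of day 12 and 304 CPM (234 to 389) in those of day 9. It had a UMI in 37 of 60 and 29 of 70 cells, and in the other cells it stood at 34.0 and 14.7 CPM. PIM2, a survival kinase, stood at 114 CPM (68.9 to 179) and 19.3 CPM (5.26 to 49.5), and CLGN, an ER chaperone related to calnexin, at 157 CPM (102 to 229) and 29.0 CPM (10.6 to 63.1). RGS18 stood at 427 CPM (334 to 539) and 164 CPM (114 to 229), and IRF8 at 241 CPM (172 to 328) and 96.6 CPM (59.0 to 149). TMEM38B, PLEKHF2, CREB3, IGSF8 and JMJD8 completed the higher genes.

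In the lower direction TLCD4 stood at 6.02 CPM (0.152 to 33.5) in rich cells of day 12 and 266 CPM (200 to 346) in those of day 9, against 4.16 and 21.7 CPM in other cells. EDEM3, an ER mannosidase of glycoprotein disposal, stood at 30.1 CPM (9.77 to 70.3) and 145 CPM (97.7 to 207). DAD1, a subunit of the oligosaccharyltransferase, stood at 78.3 CPM (41.7 to 134) and 188 CPM (134 to 257), against 37.7 and 81.9 CPM in other cells. PXDC1, RBBP5, SLC1A2, TRAF3IP3, LRRC59, ARPC5L and DUT were the other lower genes. For CREB3, IGSF8, JMJD8, TRAF3IP3, LRRC59 and DUT the counting intervals of the 2 days overlapped.

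**Figure D5:**
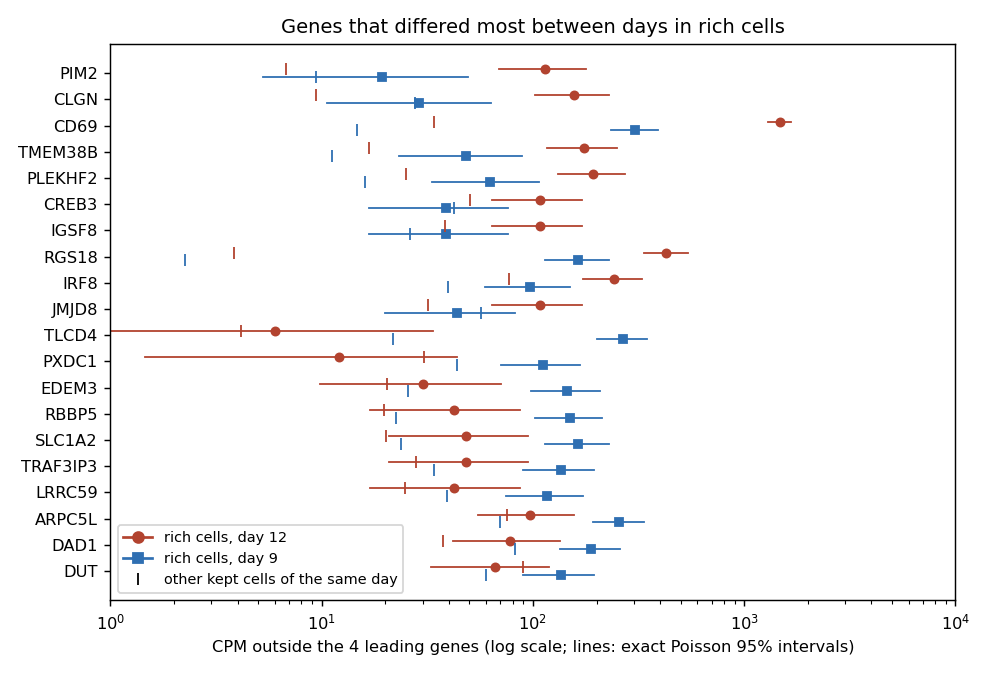
Rich cells of day 12 (circles) and day 9 (squares) for the 10 highest and 10 lowest genes of day 12 over day 9 that were at least 2-fold higher in rich than in other cells. The x axis is CPM outside the 4 leading genes on a log scale, lines are exact Poisson 95% intervals and ticks give the other kept cells of the same day. CD69 has the highest level, at 1475 CPM for day 12 and 304 CPM for day 9.

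Signals that act on plasma cells were read in the other cells, with epithelium chosen as cells with 2 or more EPCAM UMIs (131 on day 12 and 322 on day 9). CCL28 stood at 30.3 CPM (19.0 to 45.8) in epithelium of day 12 and 940 CPM (905 to 977) in that of day 9, and over all other kept cells at 2.48 and 171 CPM. Its receptor gene CCR10 had 69.4 and 66.6 CPM in rich cells, as given above. PIGR stood at 20.6 CPM (11.6 to 34.1) in epithelium of day 12 and 64.8 CPM (55.8 to 74.9) in that of day 9. CCL28 UMIs on day 9 were not limited to epithelium, with 155 CPM in stromal cells and 313 CPM in macrophages.

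Of the survival ligands read, TNFSF13 and TNFSF13B were highest in macrophages among the cell sets compared. TNFSF13, which encodes APRIL, stood at 35.6 CPM (27.8 to 44.9) in macrophages of day 12 and 83.7 CPM (72.3 to 96.4) in those of day 9. TNFSF13B, which encodes BAFF, was the other way round, at 91.7 CPM (78.9 to 106) and 28.3 CPM (21.9 to 36.1). In stromal cells CXCL12, the ligand of CXCR4, stood at 34.6 CPM (31.9 to 37.5) for day 12 and 17.7 CPM (16.0 to 19.7) for day 9. In T cells CXCL12 stood at 14.1 CPM (6.08 to 27.8) and 43.8 CPM (24.5 to 72.2), the other way round and with intervals that overlap. IL6, a survival cytokine of plasma cells, stood at 79.2 CPM (75.1 to 83.5) and 28.7 CPM (26.4 to 31.1) in stromal cells. In macrophages it stood at 21.6 and 9.59 CPM. The counting intervals of the 2 days did not overlap for TNFSF13 and TNFSF13B in macrophages or for CXCL12 and IL6 in stromal cells, and each pair compares 1 library with 1 library.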

How the data were processed

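Single-cell RNA was measured in 4 libraries, of which the 2 of endometrium enter the comparisons. The authors deposited raw UMI counts for each gene in each barcode. The submitters' processing notes list Cell Ranger 6.1.2 and the pig build Sscrofa11.1. Per the file headers, 3 matrices were written by version 6.1.2 and that of the day 9 embryo by version 4. Which annotation release and which cell filter the submitters applied is not stated in the labels used.

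The features list 21280 genes: 14811 with a symbol, 694 given one by ID from a gene name table, and 5775 with none. Counts were summed over cells, divided by the total of all genes or of the genes outside the 4 leading ones, and given as CPM. Log2 ratios use 1 CPM added. A call is a ratio past 2-fold at 50 CPM or more, and lists use genes at 5 CPM or more. Intervals are exact at 95%. Between members and other cells the named genes are the 20 highest at 50 CPM or more in members with UMIs in 10 or more of them, and the 10 lowest at 500 CPM or more in other cells. Between days they are the 15 highest and 15 lowest at 100 CPM or more with UMIs in 10 or more members of the higher day. Rule, mitochondrial, ribosomal protein and haemoglobin genes and genes without a symbol were not ranked. The 4 leading genes each held 5% or more of member UMIs.

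Among the other cells, T cells had a UMI of CD3E and 3 or more of CD3E, CD3D and CD3G. Macrophages had no CD3E and 5 or more UMIs of CSF1R, CD68, CD163, C1QA, C1QB and AIF1. Stromal cells had no PTPRC and 10 or more UMIs of DCN, LUM, COL1A1 and COL3A1. Members and lists were chosen with earlier results of these data known. No doublet caller was applied. The EPCAM rule for epithelium, the rich and poor division, the marker-list assignment of poor cells and the rankings within rich cells were added after the values were seen. The ratio and interval code was tested on simulated data. Python 3.11.15, numpy 2.4.6, scipy 1.17.1, pandas 2.3.3 and matplotlib 3.10.9 were used. With 1 library a group there is no test over samples.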

Additional observations from a re-analysis of the deposited data

Results flagged for a closer look

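The rule that chose the endometrial cells was also met in the embryo libraries, which enter no comparison. It was met by 722 kept barcodes of the day 12 embryo and by 511 of the day 9 embryo, which were 10.7% and 5.19% of kept barcodes. No kept embryo barcode reached 10% of UMIs in the 4 leading genes, and PTPRC, the leukocyte antigen CD45, had 0 UMIs in the barcodes that met the rule. CD79A stood at 164 CPM over all kept barcodes of the day 12 embryo and at 150 CPM over those of the day 9 embryo.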

How the results depend on the processing

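The difference in share of members between days stayed within its counting interval in 11 alternatives, from −0.400 to 0.0511 points. Of the list medians under the alternatives 221 moved by over 0.1 log2, 3 reversed and 216 did neither. The main counts were 32 genes higher and 2071 lower in members, and 128 higher and 355 lower on day 12. Where a count moved by more than 1.5 times it is given here. A rule of 3 UMIs (146 and 162 members on days 12 and 9) gave 89 and 764, then 312 and 536 between days. A rule of 10 UMIs gave 34 and 186 between days, and turned the log2 ratios of CCL28 (−0.91) and SORL1 (−1.63) in members over others and of CCL2 (−0.021) between days, and the median of the B cell list between days (−0.53). The rule on cells thinned to 1000 UMIs (9 and 17 members) gave 71 higher genes in members and 40 higher on day 12, with CCL28 at −2.29, SORL1 at −1.53, TIFA at −0.54, LRATD1 at 0.91 and the B cell list at −2.10. Leaving out members with 3 or more UMIs of stromal, macrophage, epithelial or endothelial genes left 2 members a day, so its values rest on few cells: 711 higher genes, 0 and 0 between days, CCR10 −1.66, AQP3 −4.71, CCL28 −6.47, SORL1 −5.33, DNAJB11 −5.48 and, between days, CD69 −7.66. A minimum of 20 CPM gave 4478 lower genes in members and 281 and 986 between days, and no minimum gave 126 and 8504, then 587 and 2505. Scaling by the median ratio gave 105 and 299, and 191 lower on day 12. Day 12 alone gave CCL28 −1.80 and SORL1 −1.43. Counts thinned to 1000 UMIs a cell gave 50 higher genes in members, 351 and 235 between days, and CCL28 at −0.016. Added after seeing the data, scaling without the 4 leading genes gave 231 and 493, and 440 higher on day 12. Scaling to genes with a symbol gave 109 and 853, and 291 higher on day 12. Rich cells alone gave 34 and 75 between days, CCL28 −2.55, SORL1 −2.75, CCL2 −0.10, LRATD1 0.49 and the B cell list −0.42. Rich cells scaled without the 4 genes gave 277 and 749, 275 higher on day 12, CCL28 −0.71, SORL1 −1.03 and LRATD1 0.78. Fewer cells or genes enter several of these by construction, and otherwise the cause was not tested. Totals without immunoglobulin genes were not run, since no immunoglobulin gene carries a symbol. No paired analysis was possible because each group has 1 library, which also leaves no replicate to leave out. Genes at a few UMIs in the rich cells are limited by depth, with 3 UMIs equal to 4.34 CPM on day 12 and 4.16 CPM on day 9.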
